A study of Danio rerio with 12 samples.

Results

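Rod phototransduction genes encode the proteins by which rods, the dim-light photoreceptors of the retina, turn light into an electrical signal. They were followed in wild-type whole zebrafish embryos exposed to methylmercury (MeHg), an organic mercury compound toxic to the nervous system. The genes were chosen by symbol, as the rows of the deposited gene table that carry 1 of 8 symbols, namely gnat1, gnb1b, pde6a, pde6b, saga, sagb, grk1a and cnga1. The table holds 32057 genes. It has a row for 7 of the 8 symbols and no row whose symbol is exactly cnga1, so 7 genes were analysed as members. The 4 groups were embryos held in 0 (control), 6, 30 or 50 µg/L MeHg from 4 to 72 h post-fertilisation (hpf), all wild type per the labels, with 3 samples each and 12 in all. Poly(A) RNA was sequenced from whole embryos, so photoreceptor transcripts were measured among those of all other tissues. Whether the replicates are separate clutches is not stated in the labels, so p-values measure the spread between these samples only.

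In a rod, light activates rhodopsin, which switches on the G protein transducin, made of an alpha (gnat1), a beta and a gamma subunit. Activated transducin releases the inhibition of the cyclic GMP phosphodiesterase, whose catalytic subunits are pde6a and pde6b. Cyclic GMP then falls, and the cation channel formed by cnga1 and cngb1 subunits closes. The response ends when the rhodopsin kinase grk1a phosphorylates rhodopsin and a rod arrestin (saga, sagb) caps it. Cones run the same cascade with paralogs of these proteins, and in the zebrafish larva cones carry vision before rods do.

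The libraries held 15665053 to 22207603 gene counts each. Levels below are given in CPM, which are counts scaled to library sizes by the TMM method. Where genes are set beside each other the deposited FPKM is used, which is also scaled to exonic length. Control replicate 3 stood apart from the other controls, in rod genes among others. The rod opsin rho was at 261 CPM there, against 11.9 and 17.1 CPM in control replicates 1 and 2, which is 17.9 times their mean. Of all genes tested, 12.3% were at least 2-fold higher and 4.42% at least 2-fold lower in control replicate 3 than in the mean of the other controls, with a median ratio of 0.989. Values without this library are given beside the results that it moved most.

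The 7 members lie on 6 chromosomes. In the deposited annotation, 6 of them (all but sagb) carry the phototransduction pathway term and 5 (all but gnb1b and pde6a) a photoreceptor outer segment term. All 7 genes had reads in each of the 12 libraries, so all 7 were detected at 72 hpf, but at levels that spanned a wide range. In control embryos, gnb1b averaged 57.1 ± 27.6 FPKM (SD, n = 3, as for all means below) and sagb 28.8 ± 10.4 FPKM. The transducin alpha gene gnat1 averaged 17.0 ± 4.79 FPKM and saga 5.22 ± 2.67 FPKM. The remaining genes were near the limit of what was tested, with 1.89 ± 0.373 FPKM for pde6a, 1.41 ± 0.599 FPKM for pde6b and 0.833 ± 0.727 FPKM for grk1a. The control libraries of gnb1b overlapped those of sagb in FPKM, and pde6a, pde6b and grk1a overlapped one another. In counts, grk1a had 18 to 140 reads per library, pde6a 18 to 146, pde6b 28 to 236 and saga 44 to 577. The counts of gnat1 ran from 39 to 892, those of sagb from 192 to 1367 and those of gnb1b from 2230 to 7225.

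A gene was tested where its mean over the 12 libraries reached 0.5 FPKM, and 19821 genes did so. All 7 members passed, but grk1a passed at 0.502 FPKM with 1.67 FPKM in control replicate 3, and it averaged 0.391 FPKM over the exposed libraries. Likewise, pde6b averaged 0.433 FPKM over the exposed libraries and passed through its control level. A gene that passes only through its controls had to be lower in exposed embryos. Counts of calls that include these genes, and their p-values against control and in the trend, are therefore descriptions.

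Of the 7 members, 6 were lower at 30 and 50 µg/L, 5 of them already at 6 µg/L, and gnb1b was not called. edgeR's quasi-likelihood test, with Benjamini-Hochberg adjustment over all genes tested and a threshold of 0.05, called 5 members lower at 6 µg/L, 6 at 30 µg/L and 6 at 50 µg/L, each against control, and 0 higher. Over all genes tested the same comparisons called 8.88%, 17.3% and 21.9% lower and 5.48%, 13.4% and 17.6% higher. The median log2 fold change of the 7 members was -1.15 at 6 µg/L, -1.64 at 30 µg/L and -2.08 at 50 µg/L, where the medians over all genes tested were 0.00, -0.04 and -0.04. All exposed libraries lay below all controls for 5 members at 6 µg/L, 6 at 30 µg/L and 5 at 50 µg/L, beside 13.8%, 20.1% and 23% of all genes tested. The 3 comparisons share the same control libraries. In whole embryos, fewer rods and less of a transcript per rod cannot be told apart.

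**Figure D1:**
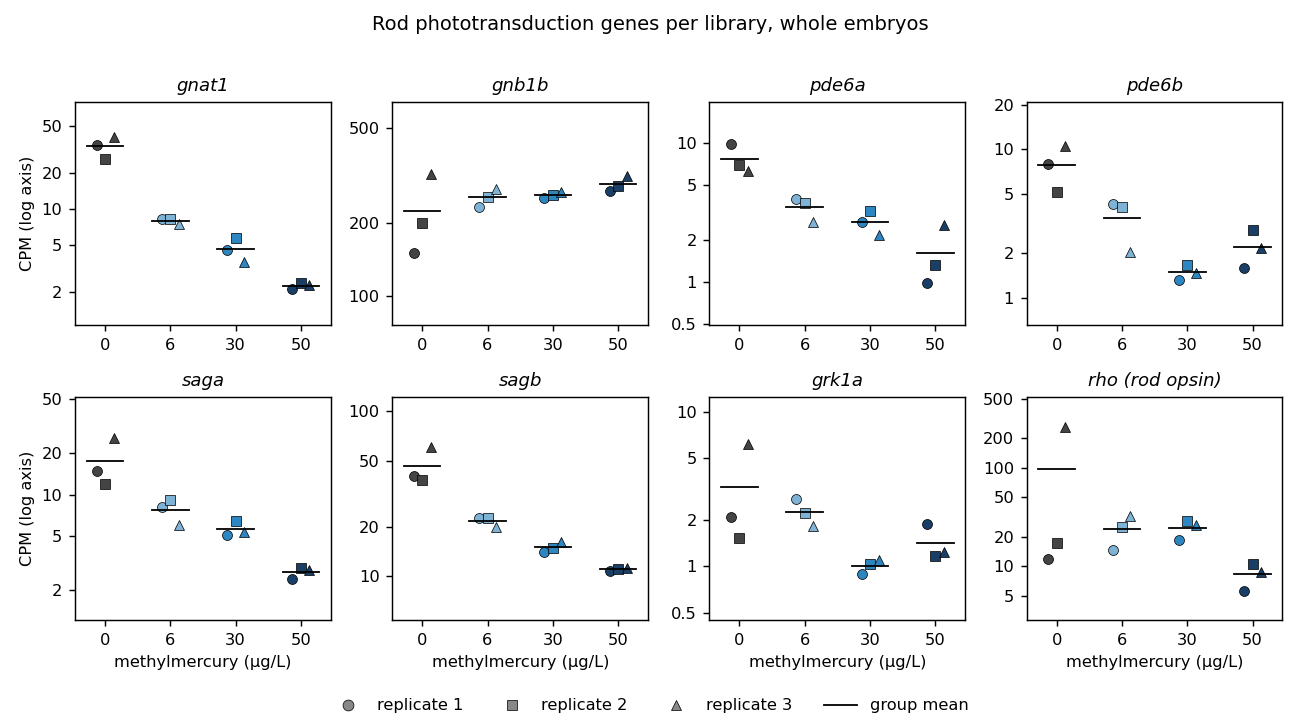
Levels of the 7 rod phototransduction genes and of the rod opsin gene rho in each library (CPM on a log axis, points) by MeHg concentration (µg/L, evenly spaced), with the group mean as a line. Means of gnat1 ran 33.5, 7.99, 4.63 and 2.28 CPM over 0, 6, 30 and 50 µg/L, gnb1b lay between 151 and 322 CPM in every library, and control replicate 3 (triangle at 0) was the highest library of rho at 261 CPM.

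The transducin alpha gene gave the largest changes against control among the members. The gene gnat1 (ENSDARG00000044199, chr6:42918933-42930302, plus strand, GRCz11, with 1967 exonic bases) encodes the rod transducin alpha subunit. Its level was 34.6, 26.1 and 39.8 CPM in the 3 controls and, with 6 µg/L, 8.25, 8.21 and 7.51 CPM. At 30 µg/L it was at 4.55, 5.77 and 3.58 CPM, and at 50 µg/L at 2.14, 2.38 and 2.31 CPM. No library of one concentration overlapped with a library of another, and each step up in concentration lay below the last. The log2 fold change of gnat1 against control was -2.07 ± 0.183 at 6 µg/L (± SE, edgeR adjusted p = 3.1e-05), -2.86 ± 0.191 at 30 µg/L (adjusted p = 1.5e-06) and -3.88 ± 0.207 at 50 µg/L (adjusted p = 8.5e-08). The fitted level at 50 µg/L was 6.81% of that in control. These calls held in all 22 alternatives run, where the change at 50 µg/L ranged from -4.12 to -3.04.

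The transducin beta gene did not follow. The gene gnb1b (ENSDARG00000104372, chr6:53304977-53334259, minus strand, GRCz11, with 3973 exonic bases) lies on the same chromosome as gnat1 and encodes a G protein beta subunit of rod transducin that many other tissues also use. Its level was 151, 200 and 322 CPM in controls and, with 6 µg/L, 235, 258 and 278 CPM. At 30 µg/L it was at 255, 262 and 271 CPM, and at 50 µg/L at 272, 287 and 315 CPM. Every exposed library lay between the second and the highest control library. The log2 fold change against control was 0.19 ± 0.206 at 6 µg/L, 0.23 ± 0.206 at 30 µg/L and 0.37 ± 0.206 at 50 µg/L (edgeR adjusted p = 0.55, 0.42 and 0.17). These values depended on the controls. Without control replicate 3 the log2 fold changes were 0.54, 0.57 and 0.72 and were all called higher (adjusted p = 2.9e-04, 1.3e-04 and 9.2e-06), in a fit that called 28.6%, 29.7% and 30.8% of all genes tested higher. With control replicate 3 as the only control they were -0.32, -0.28 and -0.14. Control replicate 3 was likewise high in gnb1a, the paralog of gnb1b, with 149 CPM against 49.1 and 52.4 CPM in the other controls. Among neuronal genes, elavl3 and elavl4 were at 3.49 and 3.57 times the mean of the other controls there. The neuronal genes sncb, snap25a and stmn1b were at 1.26, 0.965 and 0.674 times that mean. The part of these genes in the result was not tested.

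Both catalytic subunit genes of the rod phosphodiesterase were lower at 30 and 50 µg/L. Their calls at 6 µg/L depended on single libraries and on the method. The alpha subunit gene pde6a (ENSDARG00000000380, chr14:25005403-25035010, minus strand, GRCz11, with 3984 exonic bases) was at 9.90, 6.91 and 6.33 CPM in controls and at 3.96, 3.72 and 2.69 CPM at 6 µg/L. At 30 µg/L it was at 2.72, 3.23 and 2.20 CPM, and at 50 µg/L at 0.989, 1.33 and 2.56 CPM. All exposed libraries lay below all controls, while libraries of neighbouring exposed groups overlapped. The log2 fold change of pde6a against control was -1.15 ± 0.293 at 6 µg/L (edgeR adjusted p = 0.023), -1.50 ± 0.298 at 30 µg/L (adjusted p = 0.0029) and -2.22 ± 0.316 at 50 µg/L (adjusted p = 1.9e-04).

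The beta subunit gene pde6b (ENSDARG00000011671, chr21:20356458-20376607, plus strand, GRCz11, with 5593 exonic bases) was at 7.93, 5.13 and 10.5 CPM in controls and at 4.29, 4.08 and 2.02 CPM at 6 µg/L. At 30 µg/L it was at 1.31, 1.67 and 1.47 CPM, and at 50 µg/L at 1.59, 2.84 and 2.15 CPM. Here too the exposed libraries lay below every control, but the group mean was lowest at 30 µg/L and not at 50 µg/L. The log2 fold change of pde6b was -1.17 ± 0.311 at 6 µg/L (edgeR adjusted p = 0.027), -2.41 ± 0.337 at 30 µg/L (adjusted p = 2.9e-04) and -1.84 ± 0.326 at 50 µg/L (adjusted p = 9e-04). The calls of both phosphodiesterase genes at 6 µg/L were lost without control replicate 1 and without replicate 2 or replicate 3 at 6 µg/L, with log2 fold changes of -1.21 to -0.92 for pde6a and -1.31 to -0.90 for pde6b. Both were also lost with only the compared groups fitted (edgeR adjusted p = 0.06 for pde6a and 0.14 for pde6b). With control replicate 3 the sole control, pde6a missed the threshold (adjusted p = 0.065). The call of pde6b was lost with library totals (adjusted p = 0.055) and under limma with either pseudocount (adjusted p = 0.055 and 0.079). At 6 µg/L the call of pde6a held in 16 of 21 alternatives and that of pde6b in 14 of 21. Their calls at 30 and 50 µg/L held in all 21 alternatives. As pde6b passed the minimum through its control level, this is a description for pde6b.

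Of the genes whose proteins end the response, both rod arrestin genes were lower at each concentration. The arrestin gene sagb (ENSDARG00000038378, chr15:45640906-45663081, plus strand, GRCz11, with 1627 exonic bases) was at 40.8, 38.5 and 61.0 CPM in controls and at 22.6, 22.4 and 19.8 CPM at 6 µg/L. At 30 µg/L it was at 14.1, 14.8 and 16.2 CPM, and at 50 µg/L at 10.8, 11.1 and 11.2 CPM. As for gnat1, no libraries of different concentrations overlapped. The log2 fold change of sagb against control was -1.12 ± 0.158 at 6 µg/L (edgeR adjusted p = 7.9e-04), -1.64 ± 0.161 at 30 µg/L (adjusted p = 2.4e-05) and -2.08 ± 0.165 at 50 µg/L (adjusted p = 2.3e-06). At 50 µg/L sagb was the most abundant of the 6 members that were lower, with 6.63 ± 0.106 FPKM, and gnat1 was next with 1.13 ± 0.0600 FPKM.

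The second arrestin gene saga (ENSDARG00000012610, chr2:5480125-5505094, minus strand, GRCz11, with 3385 exonic bases) was at 14.8, 11.9 and 25.7 CPM in controls and at 8.08, 9.12 and 6.05 CPM at 6 µg/L. At 30 µg/L it was at 5.07, 6.46 and 5.33 CPM, and at 50 µg/L at 2.42, 2.90 and 2.82 CPM. All exposed libraries lay below all controls, and the libraries at 50 µg/L lay below those at 30 µg/L. The log2 fold change of saga was -1.17 ± 0.254 at 6 µg/L (edgeR adjusted p = 0.010), -1.64 ± 0.259 at 30 µg/L (adjusted p = 6.6e-04) and -2.69 ± 0.278 at 50 µg/L (adjusted p = 1.6e-05). The call at 6 µg/L was lost without replicate 3 of that group, where the log2 fold change was -1.02 (adjusted p = 0.055). It was also lost with only the compared groups fitted (edgeR adjusted p = 0.096).

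The rhodopsin kinase gene grk1a (ENSDARG00000058803, chr1:245076-258138, plus strand, GRCz11, with 4056 exonic bases) was the lowest expressed member. Its level was 2.10, 1.52 and 6.24 CPM in controls and, with 6 µg/L, 2.73, 2.22 and 1.83 CPM. At 30 µg/L it was at 0.892, 1.04 and 1.10 CPM, and at 50 µg/L at 1.87, 1.16 and 1.23 CPM. Exposed and control libraries overlapped at 6 and 50 µg/L and did not at 30 µg/L. Its log2 fold change was -0.56 ± 0.426 at 6 µg/L (edgeR adjusted p = 0.39), -1.72 ± 0.461 at 30 µg/L (adjusted p = 0.015) and -1.23 ± 0.447 at 50 µg/L (adjusted p = 0.044). The values moved with control replicate 3 and with the method. Limma on log2(FPKM + 1) called grk1a at no concentration (adjusted p = 0.088 at 30 µg/L and 0.16 at 50 µg/L). Both calls were also lost under limma on log2(FPKM + 0.1) (adjusted p = 0.064 and 0.16). The same held for edgeR with only the compared groups fitted (adjusted p = 0.08 and 0.14). Without control replicate 3 the log2 fold change was 0.33 at 6 µg/L and -0.34 at 50 µg/L, neither past the threshold (adjusted p = 0.34 and 0.35). The call at 50 µg/L was also lost on leaving out any 1 of the 9 exposed libraries (log2 fold change -1.48 to -1.09), and that at 30 µg/L on leaving out replicate 1 of that group (-1.64, adjusted p = 0.054). In all, the call of grk1a held in 17 of 21 alternatives at 30 µg/L and in 6 of 21 at 50 µg/L.

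**Figure D2:**
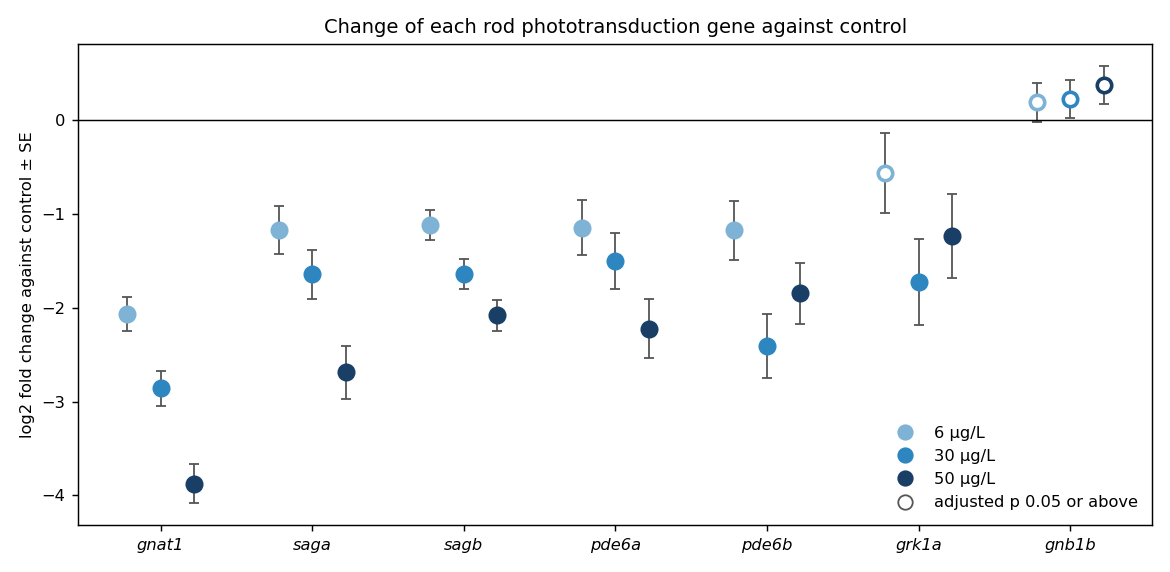
Log2 fold change of each member against control (y axis, points, with bars of ± 1 SE) at 6, 30 and 50 µg/L, filled where the adjusted p was under 0.05. The values of gnat1 run from -2.07 at 6 µg/L to -3.88 at 50 µg/L, those of pde6b are lowest at 30 µg/L at -2.41, and those of gnb1b lie above 0 with open points.

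The rod channel could be described only through genes with other symbols. The table has cnga1a (ENSDARG00000029898, chr1:43894238-43899422, minus strand, GRCz11) and cnga1b (ENSDARG00000012125, chr23:43849190-43866354, plus strand, GRCz11), which were not counted as members. Both had reads in all 12 libraries, 1 to 47 for cnga1a and 2 to 58 for cnga1b, and both averaged under the minimum, at 0.264 and 0.268 FPKM. By group over 0, 6, 30 and 50 µg/L, cnga1a averaged 1.47, 0.555, 0.380 and 0.307 CPM and cnga1b averaged 1.60, 0.583, 0.344 and 0.218 CPM. Every exposed library of either gene lay below every control library. Of the genes that reached the minimum, 13.8%, 20.1% and 23% did so at 6, 30 and 50 µg/L. Control replicate 3 was the highest control of both genes. It was at 2.10 CPM for cnga1a, against 1.29 and 1.02 CPM in control replicates 1 and 2. For cnga1b it was at 2.59 CPM, against 1.15 and 1.07 CPM. Neither gene was fitted without that library. With no minimum on expression, edgeR gave log2 fold changes at 50 µg/L of -2.20 ± 0.631 for cnga1a (adjusted p = 0.016) and -2.82 ± 0.522 for cnga1b (adjusted p = 9e-04). At 30 µg/L they were -1.91 ± 0.602 (adjusted p = 0.035) and -2.18 ± 0.478 (adjusted p = 0.0046), and at 6 µg/L neither passed the threshold, at -1.36 ± 0.576 (adjusted p = 0.15) and -1.44 ± 0.449 (adjusted p = 0.055). With no minimum, 5.88%, 10.9% and 14.6% of all genes were called lower at 6, 30 and 50 µg/L.

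Across concentration, 6 members were called lower in a trend on the concentration in µg/L, where 16.6% of all genes tested were lower and 13.3% higher. No member was called higher. Per 10 µg/L, the log2 level of gnat1 changed by -0.71 ± 0.0897 (edgeR adjusted p = 6.6e-05), that of saga by -0.47 ± 0.0643 (adjusted p = 1.1e-04) and that of pde6a by -0.39 ± 0.0706 (adjusted p = 0.0010). The change was -0.37 ± 0.0521 for sagb (adjusted p = 1.5e-04), -0.36 ± 0.0891 for pde6b (adjusted p = 0.0079) and -0.26 ± 0.0884 for grk1a (adjusted p = 0.039). The trend of gnb1b was 0.06 ± 0.0359 (adjusted p = 0.22). For grk1a the trend was lost without any 1 of 7 libraries, which were control replicate 3, replicate 1 at 6 µg/L, the 3 replicates at 30 µg/L and replicates 2 and 3 at 50 µg/L (adjusted p = 0.055 to 0.11). Over all alternatives the grk1a trend held in 11 of 21. Leaving out control replicate 3 also called gnb1b higher in the trend (adjusted p = 0.041).

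The exposed groups were also compared with one another. At 50 against 6 µg/L, edgeR called 4 members lower and 0 higher (12.9% and 11.1% of all genes tested). They were gnat1 at -1.81 (adjusted p = 8e-05), saga at -1.52 (adjusted p = 0.0020), sagb at -0.96 (adjusted p = 0.0011) and pde6a at -1.08 (adjusted p = 0.029) on the log2 scale. The pde6a call was lost without replicate 1 or 2 at 6 µg/L and without replicate 1 or 2 at 50 µg/L (log2 fold change -1.02 to -0.82). At 30 against 6 µg/L, 3 members were called lower and 0 higher (8.44% and 7.13% of all genes tested), which were gnat1 at -0.79 ± 0.191 (edgeR adjusted p = 0.014), pde6b at -1.23 ± 0.346 (adjusted p = 0.030) and sagb at -0.52 ± 0.160 (adjusted p = 0.044). Each of these 3 calls was lost on leaving out some single libraries, with the direction kept. That of gnat1 was lost without replicate 1 at 6 µg/L and without replicates 1 or 3 at 30 µg/L (log2 fold change -0.78 to -0.64), and that of sagb without any 1 of the 9 exposed libraries (-0.58 to -0.48). That of pde6b was lost without replicates 1 or 2 at 6 µg/L and without any of the 3 at 30 µg/L (-1.32 to -1.06). In 3 of these runs (without replicate 1 at 6 µg/L, without replicate 1 at 30 µg/L, and without replicate 3 at 30 µg/L) the count of members called was 0, where 4.73%, 4.65% and 4.18% of all genes tested were called lower. It was 5 without control replicate 3, where 18.3% were.

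At 50 against 30 µg/L, 2 members were called lower and 0 higher (4.44% and 4.18% of all genes tested). They were gnat1 at -1.02 ± 0.210 (edgeR adjusted p = 0.010) and saga at -1.05 ± 0.282 (adjusted p = 0.038). The saga call was lost without replicate 1 at 6 µg/L and without any 1 of the 6 libraries at 30 and 50 µg/L (log2 fold change -1.11 to -0.93). Without control replicate 3, sagb was also called lower, at -0.44 (adjusted p = 0.0026). The means of pde6b and grk1a were higher at 50 than at 30 µg/L, with log2 fold changes of 0.56 ± 0.359 (adjusted p = 0.41) and 0.49 ± 0.495 (adjusted p = 0.65) that did not pass the threshold. All libraries of the higher concentration lay below all of the lower one for 4 members at 50 against 6 µg/L, 4 at 30 against 6 µg/L and 3 at 50 against 30 µg/L, beside 28%, 24.1% and 22.1% of all genes tested.

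The other genes of the rod cascade were described from a list of 9, all in the table, of which 5 reached the minimum expression. At 6, 30 and 50 µg/L against control, edgeR called 2, 3 and 4 of the 5 lower and none higher. Over all genes tested it called 8.88%, 17.3% and 21.9% lower. The median log2 fold changes of the 5 were -1.16, -1.99 and -3.54. The medians at 30 and 50 µg/L are the values of rho itself. Leaving out control replicate 3 gave 2 lower and 2 higher at 6 µg/L, 3 lower and 2 higher at 30 µg/L, and 4 lower and 1 higher at 50 µg/L. That fit called 27.9%, 32.2% and 32.1% of all genes tested lower and 28.6%, 29.7% and 30.8% higher. The genes of the list called higher in it were gnb1a and rho at 6 and 30 µg/L and gnb1a at 50 µg/L. The rod transducin gamma gene gngt1 changed by -2.42, -2.64 and -3.89 over the 3 concentrations (edgeR adjusted p = 4.7e-06, 1.0e-06 and 4.6e-08). The recoverin gene rcvrna, which encodes a calcium sensor acting on rhodopsin kinase, changed by -1.16, -2.48 and -3.98 (adjusted p = 0.0038, 1.2e-05 and 3.2e-07). The inhibitory phosphodiesterase gamma gene pde6gb changed by -0.07, -0.38 and -1.32 (adjusted p = 0.71, 0.028 and 7.5e-06). Its call at 30 µg/L was lost without control replicate 2 and without any 1 of the 3 libraries of that group (log2 fold change -0.41 to -0.29).

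The rod opsin gene rho showed how far control replicate 3 reaches. Its level was 11.9, 17.1 and 261 CPM in controls and, with 6 µg/L, 14.5, 24.8 and 32.1 CPM. At 30 µg/L it was at 18.5, 28.9 and 26.0 CPM, and at 50 µg/L at 5.66, 10.5 and 8.76 CPM. Every library at 50 µg/L lay below every control, and libraries at 6 and 30 µg/L overlapped the controls. The log2 fold change was -2.02 ± 0.864 at 6 µg/L (edgeR adjusted p = 0.13), -1.99 ± 0.861 at 30 µg/L (adjusted p = 0.097) and -3.54 ± 0.935 at 50 µg/L (adjusted p = 0.010). Without control replicate 3 it was 0.69 at 6 µg/L and 0.72 at 30 µg/L, both called higher (adjusted p = 0.032 and 0.022), in a fit that called 28.6% and 29.7% of all genes tested higher. At 50 µg/L rho was then at -0.83 (adjusted p = 0.014) and its trend, -0.0591 per µg/L with all controls (adjusted p = 0.017), was -0.0194 per µg/L and not called (adjusted p = 0.16). The sign of the rho change at 6 and 30 µg/L thus depended on 1 library, while that at 50 µg/L stayed negative without it. The log2 fold changes of gnat1, sagb, saga, pde6a and pde6b against control were negative in every run without 1 library. For pde6b, which passed the minimum through its controls, this is a description.

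**Figure D3:**
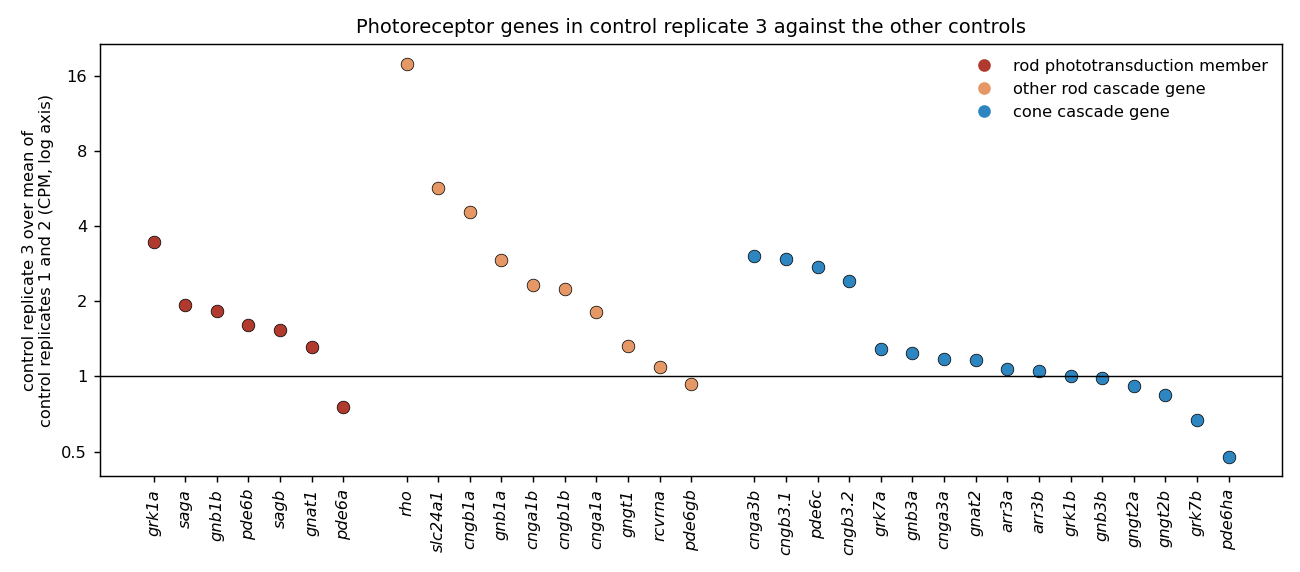
Level in control replicate 3 divided by the mean of control replicates 1 and 2 (CPM, log axis) for the members, other rod cascade genes (with cnga1a and cnga1b) and cone cascade genes with a mean of at least 0.5 CPM, with a line at 1. The opsin rho is at 17.9, grk1a at 3.44, gnat1 at 1.31 and pde6a at 0.753. Cone genes range widely too, with cnga3b at 3.05, pde6c at 2.75, gnat2 at 1.16 and pde6ha at 0.478.

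Regulators of photoreceptor recovery were described from a list of 17, of which 16 were in the table and 9 reached the minimum. Whether each gene acts in rods, in cones or in both was not tested, so the list is not a result on rods. At 6, 30 and 50 µg/L, 7, 7 and 8 of the 9 were called lower by edgeR and none higher, with median log2 fold changes of -1.86, -2.14 and -3.82. Over all genes tested, 8.88%, 17.3% and 21.9% were called lower. Of the 9 listed regulators, rgs9a, guca1g and rgs9bp averaged 0.206, 0.418 and 0.316 FPKM over the exposed libraries and passed only through their controls. The counts and medians, and the p-values of rgs9a and guca1g below, are therefore descriptions. Leaving out control replicate 3 gave 7 called lower and 1 higher (gnb5a) at 6 µg/L, in a fit that called 27.9% of all genes tested lower and 28.6% higher. The gene rgs9a, whose product speeds the shut-off of transducin, averaged 12.7 ± 4.46, 1.45 ± 0.196, 0.884 ± 0.330 and 0.267 ± 0.147 CPM over 0, 6, 30 and 50 µg/L. Its partner gnb5b, a G protein beta subunit of another class than gnb1b, averaged 32.7 ± 4.48, 11.7 ± 1.35, 7.41 ± 0.222 and 3.81 ± 0.504 CPM. The log2 fold change at 50 µg/L was -5.51 ± 0.397 for rgs9a and -3.10 ± 0.154 for gnb5b (edgeR adjusted p = 1.2e-06 and 6.4e-08). For rcvrn2, of the recoverin family, it was -3.82 ± 0.186 (adjusted p = 5e-08), and for guca1g, of the guanylate cyclase activating proteins, -4.53 ± 0.493 (adjusted p = 2.4e-05).

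Most cone counterparts were lower too, with larger median changes than the members. Of 17 cone cascade genes listed, 16 were in the table and 14 were tested, and edgeR called 12, 14 and 13 lower at 6, 30 and 50 µg/L and none higher. Over all genes tested it called 8.88%, 17.3% and 21.9% lower. The median log2 fold changes of the 14 cone genes were -2.88, -3.32 and -4.44. Among them grk1b averaged 0.482 FPKM over the exposed libraries and passed only through its controls. The cone transducin alpha gene gnat2 changed by -3.10, -3.90 and -5.98 and the cone arrestin gene arr3a by -2.26, -2.74 and -4.43. The cone transducin gamma gene gngt2b changed by -3.31, -4.23 and -8.44, with 0.406 to 0.550 CPM left at 50 µg/L against 143 to 191 CPM in controls. The genes not called were gnb3a and grk7b at 6 µg/L and grk7b at 50 µg/L, named here after their values were seen. The cone opsin kinase gene grk7b averaged 3.14 ± 0.727, 2.85 ± 0.512, 1.73 ± 0.169 and 2.67 ± 0.570 CPM over 0, 6, 30 and 50 µg/L. Its log2 fold change was -0.12 ± 0.235 at 6 µg/L (edgeR adjusted p = 0.76), -0.84 ± 0.244 at 30 µg/L (adjusted p = 0.022) and -0.22 ± 0.236 at 50 µg/L (adjusted p = 0.50). The cone transducin beta gene gnb3a was at 0.14 ± 0.103 at 6 µg/L (edgeR adjusted p = 0.36), and changed by -1.81 and -2.75 at 30 and 50 µg/L. Without control replicate 3, gnb3a was called higher at 6 µg/L, at 0.24 (adjusted p = 0.014).

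The difference between rod and cone genes was tested within libraries, as the log2 ratio of a rod gene to its cone paralog, which does not depend on how libraries are scaled other than through a pseudocount of 0.1 CPM. Of 12 pairs listed, 10 could be tested, and the 2 pairs with cnga1 could not. The listed pairs leave out the cone paralogs grk7b and gnb3a. The members and the cone list that the pairs draw on were chosen with earlier results of these data known. In all 10 the ratio was higher in the 9 exposed than in the 3 control libraries by a two-sided exact permutation test adjusted over the 10 pairs. Several genes, such as saga, arr3a and grk1a, recur across pairs, so the 10 are not separate results. For 8 pairs all 9 exposed libraries lay above all 3 controls, with an exact permutation p = 0.0091, the smallest value that 220 assignments allow, and adjusted p = 0.011.

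Per exonic length, gnat1 stood at 47.4%, 46.3% and 59.7% of gnat2 in the libraries at 6 µg/L, at 51.3%, 52.9% and 46.2% at 30 µg/L, and at 110%, 97.3% and 108% at 50 µg/L, against 24.9%, 21.3% and 26.1% in controls. The rod and cone transducin alpha genes were at near equal levels per length at 50 µg/L, where both were below control. The mean log2 ratio was 1.42 higher in exposed libraries for gnat1 to gnat2. It was 1.57 and 2.78 higher for sagb to the cone arrestins arr3a and arr3b, and 1.40 and 2.62 higher for saga to the same genes. For grk1a it was 3.79 higher against grk1b and 3.11 higher against grk7a, both kinases of cone opsins. The ratio of gnb1b to the cone beta gene gnb3b was 5.14 higher. Many other tissues also use gnb1b, which averaged 224 CPM in controls and 291 CPM at 50 µg/L. This pair therefore mostly follows gnb3b, which averaged 208 CPM in controls and 1.83 CPM at 50 µg/L, and does not describe rods.

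The higher ratio did not extend to every cone paralog. The pairs grk1a/grk7b and gnb1b/gnb3a were added after their values were seen, and p-values were adjusted anew over these and the 10 listed pairs. The mean log2 ratio of grk1a to grk7b was -0.326, -0.722 and -0.875 at 6, 30 and 50 µg/L, against -0.168 in controls, a difference of -0.47 between exposed and control libraries (exact permutation p = 0.45, adjusted p = 0.45). None of the 9 exposed libraries lay above all controls and 1 lay below them, and without control replicate 3 the difference was 0.29 (exact permutation p = 0.25). For gnb1b to gnb3a the mean log2 ratio was 1.20, 3.19 and 4.27 at 6, 30 and 50 µg/L, against 1.09 in controls. The difference of 1.79 did not pass (exact permutation p = 0.055, adjusted p = 0.06), with 6 of 9 exposed libraries above all controls. Adjusted over all 12 pairs, 8 pairs kept their calls (adjusted p = 0.014) and those of pde6a and pde6b to pde6c did not (adjusted p = 0.055).

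The phosphodiesterase pairs gave the weakest test. The log2 ratio of pde6a to the cone gene pde6c was 1.59 higher in exposed libraries and that of pde6b to pde6c 1.46 higher, with 5 of 9 exposed libraries above all controls in both (exact permutation p = 0.045, adjusted p = 0.045). In control replicate 3, pde6c was at 96.6 CPM, against 26.5 and 43.9 CPM in the other controls. Both calls were lost without any 1 of 8 libraries, which were control replicates 2 and 3, replicates 1 and 2 at 6 µg/L, replicate 1 at 30 µg/L and the 3 replicates at 50 µg/L. Leaving out single libraries moved the ratio difference from 0.96 to 2.21 for pde6a and from 1.20 to 1.93 for pde6b.

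**Figure D4:**
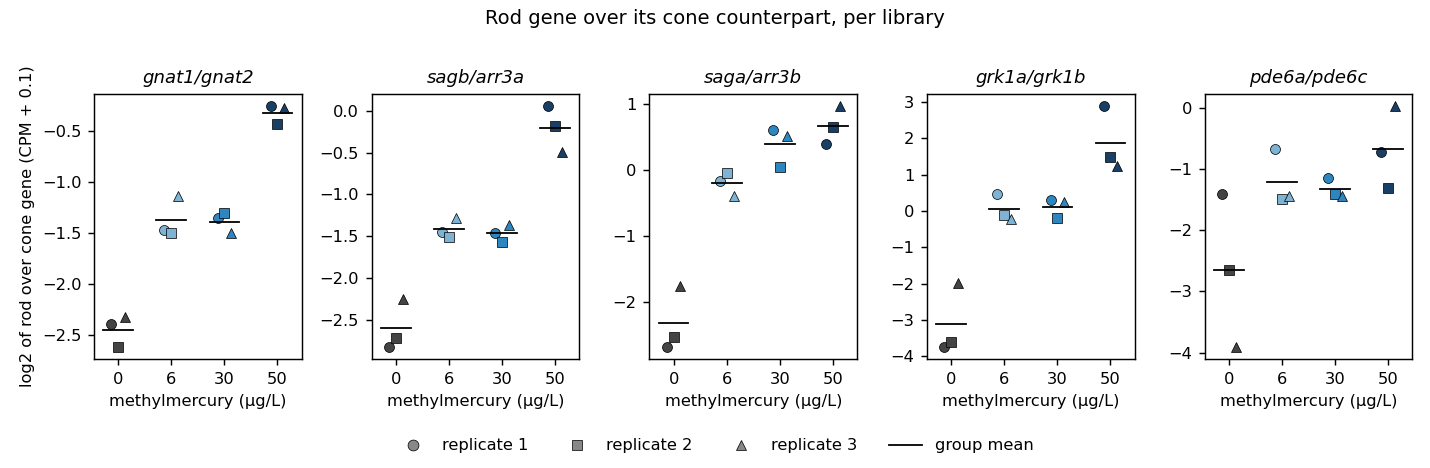
Log2 ratio of a rod gene to its cone paralog in each library (CPM + 0.1, points, with group means as lines) by MeHg concentration (µg/L, evenly spaced), for 5 of the 10 pairs tested. For gnat1/gnat2 the group means are -2.45, -1.37, -1.39 and -0.32 over 0, 6, 30 and 50 µg/L, and for pde6a/pde6c the lowest library is control replicate 3.

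Markers of the cells that hold these genes were set beside them. The sum of the 6 members other than gnb1b was 90.1 to 150 CPM in controls, 39.9 to 49.9 CPM at 6 µg/L, 28.7 to 33.0 CPM at 30 µg/L and 19.8 to 22.3 CPM at 50 µg/L. The 7 cone markers summed to 1620 to 2070, 164 to 223, 90.7 to 127 and 9.89 to 16.0 CPM over the same groups. The pineal organ also holds photoreceptors. Its 7 marker rows summed to 15.7 to 22.5 CPM in controls and to 19.9 to 22.5, 16.1 to 19.4 and 19.9 to 21.5 CPM at 6, 30 and 50 µg/L. This sum stayed within or at the edge of the control range where that of the rod members did not. Single markers left their control range in either direction. The gene aanat2 was at 5.49 to 6.66 CPM at 6 µg/L and 1.38 to 2.49 CPM at 30 µg/L, against 3.12 to 3.61 CPM in controls. At 30 µg/L exorh was at 4.61 to 4.79 CPM, and at 50 µg/L at 3.69 to 5.06 CPM, against 1.36 to 3.30 CPM in controls. The higher parietopsin row was at 6.35 to 7.71 CPM at 6 µg/L and 5.45 to 7.39 CPM at 30 µg/L. Its controls were at 7.80 to 9.68 CPM. No marker gene was at 0 in all 12 libraries.

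Transcription factors of the rod lineage were not called against control. The gene nr2e3 averaged 17.0 ± 4.83, 21.9 ± 2.17, 13.4 ± 0.551 and 13.6 ± 0.451 CPM over 0, 6, 30 and 50 µg/L. No exposed group passed the threshold against control (edgeR adjusted p = 0.16, 0.14 and 0.15), but nr2e3 was lower at 30 and at 50 than at 6 µg/L (adjusted p = 0.014 and 0.011) and in the trend (adjusted p = 0.037). Its partner nrl was scarce, at 0.684 ± 0.807, 1.33 ± 0.265, 0.885 ± 0.121 and 0.922 ± 0.566 CPM, and was not called in any comparison. Its control mean rested on control replicate 3, at 1.61 CPM against 0.136 and 0.305 CPM in control replicates 1 and 2. All libraries at 6 µg/L (1.06 to 1.59 CPM) and 30 µg/L (0.750 to 0.986 CPM) lay between these levels. A steady level of nrl therefore cannot be read from the missing calls.

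Markers of other cells of the eye and nervous system were set beside the rod markers. The 4 rod markers (rho, nrl, nr2e3 and gnat1) summed to 62.2 to 315, 48.3 to 61.5, 38.1 to 48.4 and 21.2 to 28.1 CPM over 0, 6, 30 and 50 µg/L, with a control median of 65.9 CPM. Of these gnat1 is itself a member, and the others did not all follow the sum. At 6 µg/L gnat1 averaged 7.99 CPM against 33.5 CPM in control. There nr2e3 and nrl averaged 21.9 and 1.33 CPM, above their control means of 17.0 and 0.684 CPM. The opsin rho averaged 23.8 CPM there, against 11.9, 17.1 and 261 CPM in the controls. Over 0, 6, 30 and 50 µg/L, the 5 neuronal genes summed to 1290 to 1700, 1450 to 1570, 1260 to 1280 and 1010 to 1080 CPM, and the 3 bipolar cell genes to 93.0 to 139, 128 to 138, 75.9 to 94.2 and 57.7 to 62.8 CPM. The 3 pigment epithelium genes summed to 62.4 to 98.3, 51.7 to 54.2, 51.7 to 68.1 and 57.0 to 65.1 CPM, and the 4 lens genes to 447 to 496, 503 to 548, 504 to 547 and 517 to 553 CPM. At 50 µg/L the neuronal and bipolar sums lay below all controls and the lens sum above them. The neuronal and lens genes did not all follow their sums. At 50 µg/L snap25a, stmn1b and sncb lay below all controls. The genes elavl3 (248 to 298 CPM) and elavl4 (259 to 264 CPM) lay above control replicates 1 and 2 and below control replicate 3. Of the lens genes only cryaa lay above all controls, and crygm2d1 averaged 281 CPM against 336 CPM in control. The part of these markers in the result was not tested.

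Lastly, the genes whose profile over the 12 libraries lay nearest to each member were listed by the root-mean-square difference of centred log2(CPM + 1) values, as a description. For gnat1 they were slc25a3a (0.218), aqp9b (0.228) and the cone channel gene cnga3a (0.253). For saga they were the cone channel gene cngb3.2 (0.176), rbp3 (0.178), which encodes a retinoid carrier between photoreceptors and pigment epithelium, and rpgrip1 (0.188), a photoreceptor cilium gene. For sagb they were galnt13 (0.146), rbp3 (0.154) and tulp1b (0.157). For pde6a the nearest were rgs8 (0.169), cpb1 (0.183) and rbp4l (0.199), and for grk1a they were gldn (0.197), dbpa (0.202) and cabp2a (0.207). The nearest genes to gnb1b were mark3a (0.076), fbxo11a and cul4a (both 0.077), and none of the 3 is a photoreceptor gene by its name. The difference depends on the level of a gene and on how far it varies. It is therefore not compared between gnb1b, the most abundant member, and the others. For pde6b the nearest were si:ch211-232m10.6 (0.22), si:ch73-380n15.2 (0.287) and si:ch211-285j22.3 (0.291), for which no role is stated here.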

How the data were processed

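TRIzol extraction, poly(A) selection, fragmentation, random priming and paired reads of 150 bases are given per the labels' protocols. The deposited table gives a raw count and an FPKM value per gene for each of the 12 libraries. The counts are whole reads with no normalization, and the deposited FPKM values equal counts scaled to exonic length and summed counts within 0.005. Per the submitters' processing notes, and with no roles stated, the tools were HTSeq 0.6.1, HISAT2 2.0.1, DESeq2, cutadapt 1.9.1 and FastQC 0.10.1, on GRCz11. Annotation release and strand setting: not given in the sources used here. Reads shared by overlapping genes or by close paralogs therefore cannot be assigned with certainty.

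Counts were fitted with edgeR 4.0.16 in R 4.3.3 (TMM, quasi-likelihood, two-sided) on all 12 libraries as 4 groups, or on concentration as a number, with Benjamini-Hochberg adjustment over 19821 genes. Genes needed a mean of 0.5 FPKM. The SE is the log2 fold change over the square root of F, which is approximate. The log2 ratios were tested with SciPy 1.17.1 on pairs with at least 20 counts in all. Of each list, up to 4 tested genes with the smallest p in the trend were named, and the 3 nearest genes to each member. The members and lists were chosen with earlier results of these data known. The scripts were tested on simulated data. Alternatives were limma 3.58.1 on log2(FPKM + 1) and log2(FPKM + 0.1), DESeq2 1.42.0, library totals, other minima, the compared groups only, a replicate block and leaving out each library. The ratio pairs grk1a/grk7b and gnb1b/gnb3a were added after seeing the data. A run with control replicate 3 as the only control was chosen after seeing the data and assumes that it varies like the other groups. Library totals of 15665053 to 22207603 counts and low counts per gene limit precision for grk1a, pde6a and pde6b.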

Additional observations from a re-analysis of the deposited data

How the results depend on the processing

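Against control, the calls of gnat1 and sagb held under every alternative. The number of the 7 members called at 6, 30 and 50 µg/L was 5, 6 and 6 as reported. It was 3 at each concentration with a minimum mean of 2 FPKM, where only 4 members were tested. Of all genes tested with that minimum, 9.93%, 19.1% and 23% were called lower. That minimum also gave 1 at 30 against 6 µg/L (9.31%), 1 at 50 against 30 µg/L (4.67%) and 3 in the trend (17.8%). With only the compared groups fitted it was 2 at 6 µg/L (gnat1 and sagb), where 2.13% of all genes tested were called lower against 8.88% as reported. It was then 5 at 30 against 6 µg/L, where 17% were, against 8.44%. At 50 against 30 µg/L it was 1 under limma with either pseudocount, library totals and the replicate block. There 4.25%, 4.84%, 4.66% and 4.19% of all genes tested were called lower. Leaving out 1 library at a time gave 2 to 6, 5 to 7 and 5 to 6 against control at 6, 30 and 50 µg/L. It gave 0 to 5 at 30 against 6, 1 to 3 at 50 against 30, 3 to 5 at 50 against 6 µg/L, and 5 to 6 in the trend. These counts take both directions. The share of all genes tested called lower moved as well. Against control it ran from 4.18% to 27.9%, 10.6% to 32.2% and 15.3% to 32.1% at 6, 30 and 50 µg/L. It ran from 4.18% to 18.3% at 30 against 6 and from 2.19% to 12.3% at 50 against 30 µg/L. At 50 against 6 µg/L it was 8.31% to 23.1%, and in the trend 12% to 18.5%. Without control replicate 3, 5, 6 and 5 members were called lower at 6, 30 and 50 µg/L and 5 in the trend. In each of these, 1 member, gnb1b, was called higher. Of all genes tested, 27.9%, 32.2%, 32.1% and 18.5% were then called lower and 28.6%, 29.7%, 30.8% and 15.4% higher.

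Leaving out 1 library moved the log2 ratio differences between 1.33 and 1.48 for gnat1/gnat2, 4.81 and 5.44 for gnb1b/gnb3b, 0.96 and 2.21 for pde6a/pde6c, and 1.20 and 1.93 for pde6b/pde6c. The ranges were 1.23 to 1.69 for saga/arr3a, 2.43 to 2.90 for saga/arr3b, 1.44 to 1.75 for sagb/arr3a, 2.60 to 2.96 for sagb/arr3b, 2.79 to 3.57 for grk1a/grk7a and 3.47 to 4.36 for grk1a/grk1b. Only the pde6 pairs lost their calls, without any 1 of 8 libraries. With a pseudocount of 1 CPM all 10 pairs kept theirs. With p adjusted over 12 pairs, 2 of which were added after seeing the data, pde6a/pde6c (1.59) and pde6b/pde6c (1.46) were not called (exact permutation, adjusted p = 0.055).

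Signs turned for some changes, among them the large changes of rho at 6 and 30 µg/L, which depended on control replicate 3. With control replicate 3 as the only control, chosen after seeing the data, gnb1b was at -0.32, -0.28 and -0.14, gnb3a at -0.04 and pde6gb at 0.01 at 6 µg/L. Without control replicate 1 gnb1b was at -0.02 at 6 µg/L. At 30 against 6 µg/L it was at -0.08 under limma with either pseudocount, -0.09 under library totals and -0.02 without replicate 1 at 6 µg/L. At 6 µg/L pde6gb was at 0.03 and 0.04 under limma, 0.03 under library totals and 0.02 without control replicate 2. Without control replicate 3, grk1a was at 0.33 at 6 µg/L and rho at 0.69 and 0.72 at 6 and 30 µg/L. Over runs without 1 library, gnb1b ranged from -0.02 to 0.54 at 6 µg/L and from -0.02 to 0.10 at 30 against 6 µg/L, and grk1a from -0.91 to 0.33 and pde6gb from -0.14 to 0.02 at 6 µg/L. The ranges of rho were -2.54 to 0.69 at 6 µg/L and -2.50 to 0.72 at 30 µg/L.

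Same-numbered samples gave correlations of 0.097 to 0.487 for number 1, -0.359 to 0.164 for number 2 and -0.008 to 0.199 for number 3 (6 pairs each), and -0.525 to 0.419 over 36 pairs of other numbers. Not every pair was over 0.1, so the numbers were not taken to pair the samples. The replicate block gave 5 members called at 6, 6 at 30 and 5 at 50 µg/L against control, and 5 in the trend. Over all genes tested it called 8.77%, 17.1%, 21.3% and 15% lower. Depth limits the values of grk1a, pde6a and pde6b, which had as few as 18 to 28 counts in a library.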
